A study of Mus musculus with 10 samples.

Results

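The 10 genes of lung macrophages and monocytes described here were chosen by name as markers of these cells. Of these, 8 are macrophage genes (Marco, Mrc1, Chil3, Itgax, Siglecf, Csf1r, Adgre1 and Mpeg1) and 2 are monocyte genes (Ccr2 and Cx3cr1), which were kept apart. Each probe set annotated with 1 of these symbols and no other was taken. The 10 genes had 17 probe sets, out of 18193 genes with a probe set of their own on the array. The samples were lungs of C57BL/6J mice from the Jackson Laboratory at the age of 2 weeks, with sex unknown and 1 Affymetrix Mouse 430 2.0 array per mouse. In the smoke group (n = 6), pups and their mother spent part of each day in a cigarette smoke chamber, starting when the pups were 1 day old. Sessions lasted 1 hour during the first 7 days and 2 hours during the next 7, at 90 mg of particulate matter per cubic metre on average. The control group (n = 4) breathed filtered air and was kept separately. The labels name no other treatment or allele and give neither litter nor array batch. The spread behind each p-value is that between single mice of this series, which may share a litter, and their number limits the precision. As pups were exposed with their mother and controls were kept separately, litter and housing cannot be told apart from smoke.

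Alveolar macrophages live in the air space of the lung, where they clear surfactant and inhaled particles. They arise from fetal monocytes that mature around birth under the cytokine GM-CSF, and they carry Siglec-F and CD11c on their surface. Interstitial macrophages lie in the tissue between the air sacs, and blood monocytes enter the lung by the chemokine receptors CCR2 and CX3CR1. The transcription factor PU.1, encoded by Spi1, is required for the development of these cells.

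The 4 macrophage genes with the most negative change in mean level were Marco, Siglecf, Mrc1 and Mpeg1, and the 250 bases before their start sites are shown to let their control regions be read beside their values. They come from RefSeq (GRCm38.p6), are written 5′ to 3′ on the strand of the gene, and carry in capitals each match to the core of the PU.1 motif, GAGGAA, or its reverse complement TTCCTC. The regions are chr1:120505025-120505274 on the minus strand for Marco, chr2:14229164-14229413 on the plus strand for Mrc1, chr7:43351091-43351340 on the plus strand for Siglecf and chr19:12460520-12460769 on the plus strand for Mpeg1.
Marco: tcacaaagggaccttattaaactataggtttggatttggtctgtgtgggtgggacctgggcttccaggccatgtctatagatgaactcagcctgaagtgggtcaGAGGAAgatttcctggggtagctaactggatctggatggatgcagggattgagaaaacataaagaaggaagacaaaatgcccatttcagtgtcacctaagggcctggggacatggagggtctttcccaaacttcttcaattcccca
Mrc1: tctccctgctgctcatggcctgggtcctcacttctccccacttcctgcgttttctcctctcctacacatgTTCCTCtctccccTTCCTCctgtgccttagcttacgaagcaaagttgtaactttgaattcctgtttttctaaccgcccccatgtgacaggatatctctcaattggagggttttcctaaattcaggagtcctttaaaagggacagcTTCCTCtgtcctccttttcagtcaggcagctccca
Siglecf: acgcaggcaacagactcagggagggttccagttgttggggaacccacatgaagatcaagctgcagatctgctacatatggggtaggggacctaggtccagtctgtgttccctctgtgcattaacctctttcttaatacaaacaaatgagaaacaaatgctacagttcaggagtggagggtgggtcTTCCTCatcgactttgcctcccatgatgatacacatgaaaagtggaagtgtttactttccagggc
Mpeg1: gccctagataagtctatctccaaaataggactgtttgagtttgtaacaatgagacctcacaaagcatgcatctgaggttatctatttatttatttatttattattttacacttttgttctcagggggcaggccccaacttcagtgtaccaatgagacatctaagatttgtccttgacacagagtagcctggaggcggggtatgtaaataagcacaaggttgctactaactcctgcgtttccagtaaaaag
The core occurred 1 time before Marco, 146 bases from the start, 3 times before Mrc1, at 180, 167 and 35 bases, and 1 time before Siglecf, at 65 bases. Mpeg1 held 0 matches in this window. The table held promoters for 8 of the 10 genes, and Csf1r and Adgre1 were not in it. Among those 8, 3 held the core, against 23.3% of 32851 promoters of the same length. The longer core GAGGAAGT, which contains the shorter one and was also read on both strands, was in 0 of the 8 and in 2.44% of all.

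All levels below are log2 of the quantile-normalized intensity, with its floor at 3.98, and changes are smoke minus control on that scale, with the standard error of the limma fit. They are read within a probe set, since levels of different probe sets cannot be set against each other. At an adjusted p under 0.05, 0 of the 10 genes were called lower, where 0.702% of 13382 tested genes were, and 0 were called higher, where 0.0224% were (0.725% in either direction). At an unadjusted p under 0.05, 2 of 10 were lower, Chil3 and Mrc1, against 4.47% of genes, and 0 were higher, against 5.75% (10.2% in either direction). In 0 of 10 did all smoke arrays lie below, or above, all controls in the brightest probe set, as they did for 2.11% and 1.97% of genes. The rule of the series' design text called 0 of the 10 lower and 0 higher, against 1.81% and 1.56% of genes. Of the macrophage genes 6 of 8, and both monocyte genes had a change below 0, against 43.1% of all genes. The median change was -0.51 over the macrophage genes and 0.06 over all genes tested. Of the 17 probe sets, 14 passed the filter on dim probe sets, and 0 of these were called, against 0.551% of tested probe sets. The 3 others had an exact permutation test, and 0 had a p under 0.05, against 5.3% of all dim probe sets. In whole-lung RNA, fewer cells of a type and less RNA per cell cannot be told apart.

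The arrays differed in their actin 3' to 5' ratio and in the level of Xist. The actin 3' to 5' ratio, which is high where amplified RNA is short of its 5' end, was 9.70, 10.4, 9.28 and 3.96 in controls 1 to 4. In smoke arrays 1 to 6 it was 31.6, 29.4, 9.26, 10.3, 2.18 and 2.98. Xist, the RNA expressed from the inactive X chromosome of females, was at 13.96 and 13.98 in controls 2 and 4 and at 14.09 and 14.01 in smoke arrays 5 and 6, and at 8.25 to 9.38 in the other 6 arrays. Smoke arrays 1 and 2 therefore had the highest actin ratios and smoke arrays 5 and 6 the lowest, and the arrays numbered 5 and 6 were also the only smoke arrays high in Xist.

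Marco encodes a scavenger receptor with a collagen-like stalk that binds bacteria and inhaled particles. Its tested probe set, 1449498_at, was at 8.35, 8.12, 8.31 and 8.53 in controls and at 3.98, 7.22, 7.12, 7.22, 8.25 and 8.46 in smoke arrays 1 to 6. Smoke arrays 1 to 4 lay below every control, arrays 5 and 6 lay inside the control range, and array 1 was at the floor. The change of -1.28 ± 0.70 (a 2.44-fold lower mean, 95% confidence interval from -2.81 to 0.24) did not pass (limma, adjusted p = 0.557). Without smoke array 1 it was -0.67. The second Marco probe set, 1458297_s_at, was dim, with a change of -0.73 (two-sided exact permutation p = 0.314).

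Mrc1 encodes the mannose receptor CD206, a lectin that takes up glycoproteins. Its level was 10.42, 10.65, 11.08 and 11.01 in controls and 9.50, 9.82, 9.49, 10.31, 10.88 and 10.72 in smoke arrays 1 to 6. As for Marco, smoke arrays 1 to 4 were below all controls, and arrays 5 and 6 were among them. The control mean was 10.79 ± 0.31 (SD, n = 4) and the smoke mean 10.12 ± 0.61 (SD, n = 6), a change of -0.67 ± 0.30 (1.59-fold lower, interval from -1.33 to -0.01) that had an unadjusted p of 0.0481 in the limma fit and an adjusted p of 0.494. Mrc1 is also expressed by lymphatic endothelium: of 5 markers of those vessels, 4 were tested, 0 were called, and their median change was -0.17. Lyve1, a hyaluronan receptor of lymphatic vessels and of some interstitial macrophages, had a change of -0.70 ± 0.27, and Mmrn1 of -0.29 ± 0.16 (adjusted p = 0.415 and 0.570), each below every control in 4 of 6 smoke arrays. The part of lymphatic vessels in the Mrc1 values was not tested.

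Chil3 encodes Ym1, a chitinase-like protein secreted by mouse alveolar macrophages. It stood at 13.58, 13.82, 13.93 and 13.79 in controls, and the smoke arrays ran from 12.93 over a median of 13.48 to 13.79. Smoke arrays 1, 3, 4 and 5 were below every control, while array 2 was inside the control range and array 6 level with the lowest control. The change of -0.40 ± 0.17 (1.32-fold lower, interval from -0.77 to -0.03) had an unadjusted p of 0.0355 and an adjusted p of 0.464 (limma). Chil4, a close copy whose sequence may cross-hybridise, had a change of -0.09 ± 0.86, so the share of each copy in the Chil3 signal is uncertain.

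**Figure D1:**
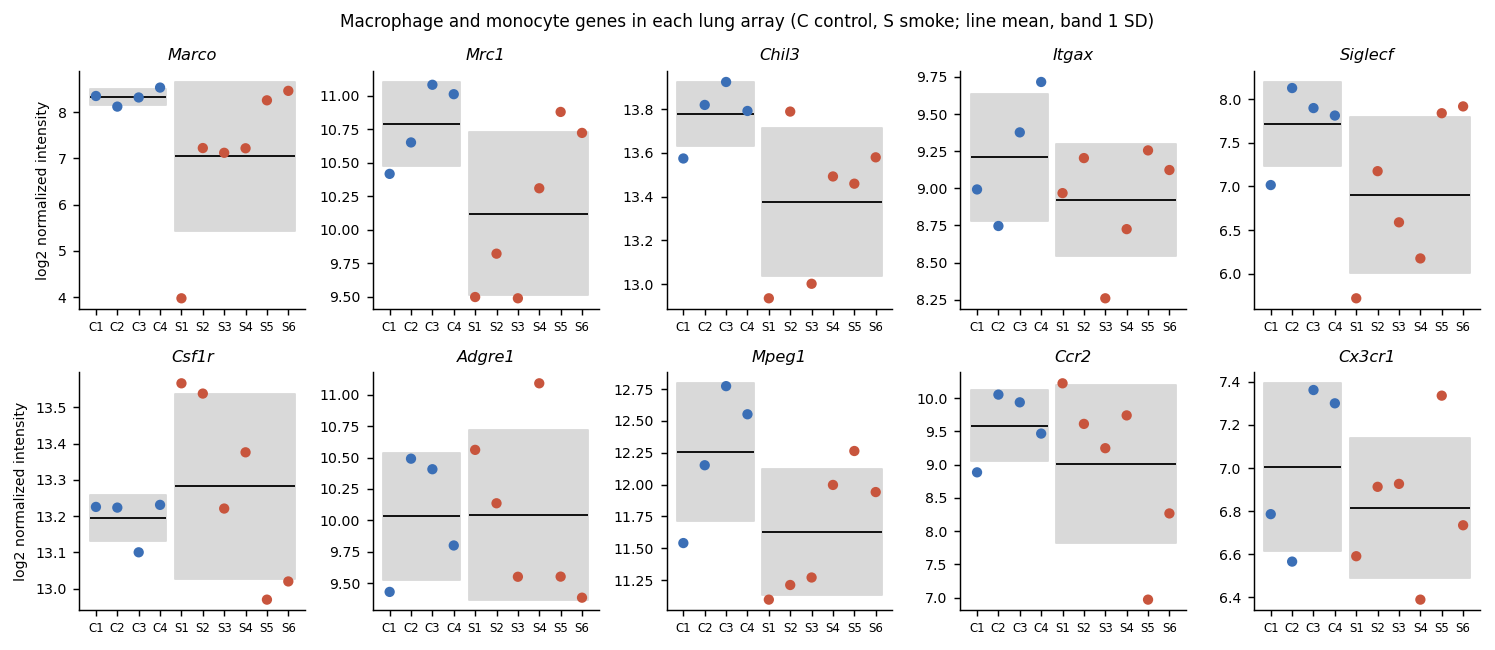
Log2 normalized intensity (vertical axes) of the brightest tested probe set of each of the 10 genes in controls C1 to C4 (blue) and smoke arrays S1 to S6 (red), with the group mean (line) and 1 SD to either side (band). Marco, Mrc1 and Siglecf are lower in S1 to S4 than in S5 and S6, while Ccr2 is lowest in S5 and S6.

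Siglecf encodes Siglec-F, a sialic acid receptor of alveolar macrophages and eosinophils. Its level was 7.02, 8.13, 7.90 and 7.81 in controls and 5.72, 7.18, 6.59, 6.18, 7.84 and 7.92 in smoke arrays 1 to 6. Smoke arrays 1, 3 and 4 were below all controls, and each of smoke arrays 1 to 4 was below arrays 5 and 6. The change was -0.81 ± 0.45 (interval from -1.79 to 0.17, limma adjusted p = 0.563). Of 5 eosinophil markers on the array, 0 passed the filter on dim probe sets.

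Itgax encodes CD11c, an integrin chain that mouse alveolar macrophages share with dendritic cells. Control levels were 8.99, 8.75, 9.38 and 9.72, and the smoke arrays ran from 8.26 over a median of 9.05 to 9.26. The groups overlapped in 4 of 6 smoke arrays, and the change was -0.29 ± 0.26 (interval from -0.85 to 0.28, limma adjusted p = 0.732). Of 10 dendritic cell markers tested, 0 were called, with a median change of 0.13; Bcl11a and Batf3, both transcription factors, had changes of 0.85 and 0.57 (adjusted p = 0.428 and 0.619).

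Mpeg1 encodes perforin-2, a pore-forming protein of phagocytes. It was at 11.54, 12.15, 12.77 and 12.55 in controls and at 11.10, 11.21, 11.27, 12.00, 12.26 and 11.94 in smoke arrays 1 to 6. The 3 lowest arrays of all were smoke arrays 1, 2 and 3, and the other smoke arrays were inside the control range. The change of -0.62 ± 0.29 (1.54-fold lower, interval from -1.26 to 0.01) did not pass (limma, adjusted p = 0.507).

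Adgre1 encodes F4/80, the adhesion receptor long used to mark mouse macrophages. Controls were at 9.43, 10.49, 10.41 and 9.80, and smoke arrays ran from 9.38 over a median of 9.84 to 11.09. The smoke arrays reached both above and below the controls, with array 4 the highest and array 6 the lowest of all 10. The mean was 10.03 ± 0.51 (SD, n = 4) against 10.05 ± 0.68 (SD, n = 6), and the change of 0.01 ± 0.36 had an interval from -0.76 to 0.79 (limma adjusted p = 0.994).

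Csf1r encodes the receptor for the macrophage growth factors M-CSF and IL-34 and is expressed by monocytes and macrophages alike. Its brightest probe set, 1419872_at, was at 13.23, 13.22, 13.10 and 13.23 in controls and at 13.57, 13.54, 13.22, 13.38, 12.97 and 13.02 in smoke arrays 1 to 6. Smoke arrays 1, 2 and 4 were above every control and arrays 5 and 6 below every control. The change was 0.09 ± 0.14 (interval from -0.21 to 0.39, limma adjusted p = 0.854). The other probe sets, 1419873_s_at and 1423593_a_at, had changes of 0.03 ± 0.17 and 0.22 ± 0.24 (adjusted p = 0.962 and 0.772).

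The ligands of Csf1r were read beside it. Csf1, which encodes M-CSF, had a change of -0.92 ± 0.18 in its brightest probe set and lay below every control in 6 of 6 smoke arrays, with an adjusted p of 0.0522 (limma). Its 3 other tested probe sets had changes of 0.39, -0.01 and -0.11, so they disagreed in sign. Il34, the gene of the second ligand, was dim, with a change of 0.62 (two-sided exact permutation p = 0.200).

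**Figure D2:**
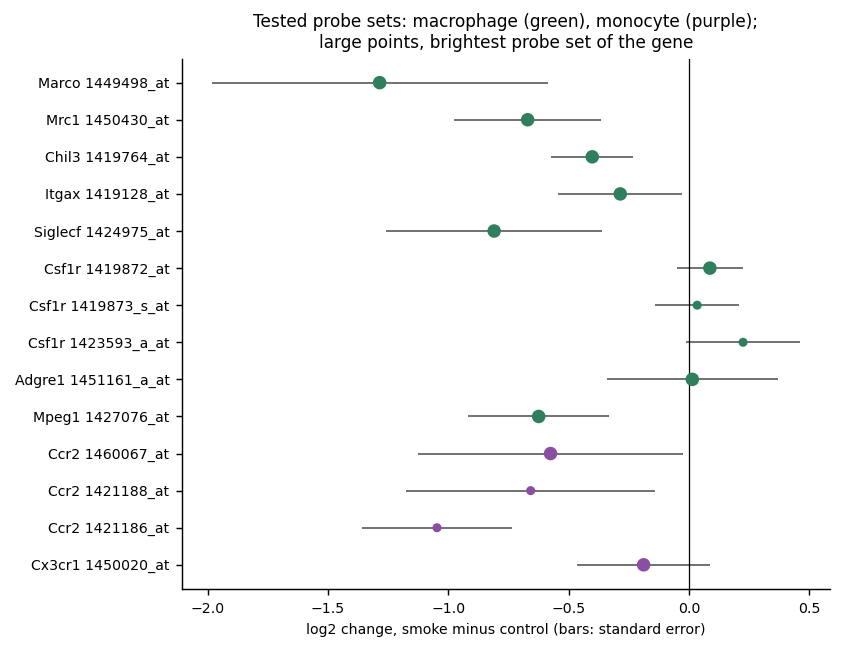
Log2 change from control to smoke (horizontal axis) for the 14 tested probe sets of the macrophage genes (green) and the monocyte genes (purple), with bars for the standard error of the limma fit; large points mark the brightest probe set of a gene. Marco has the largest change, -1.28, with the widest bar, while the 3 Csf1r probe sets and Adgre1 lie near 0.

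Ccr2 encodes the receptor for the chemokines CCL2, CCL7 and CCL12 that guides monocytes out of the bone marrow and into tissue. Its probe sets differed in their pattern over the arrays. The brightest, 1460067_at, was at 8.88, 10.05, 9.94 and 9.47 in controls and at 10.22, 9.61, 9.25, 9.74, 6.97 and 8.27 in smoke arrays 1 to 6. Here smoke arrays 5 and 6 were the lowest of all and array 1 the highest; among the smoke arrays alone, array 1 was the lowest for Marco and arrays 5 and 6 the highest. The change was -0.58 ± 0.55 (interval from -1.77 to 0.62, limma adjusted p = 0.745).

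The probe set 1421186_at of Ccr2 was at 7.82, 7.90, 8.93 and 8.33 in controls and at 6.35, 7.28, 7.24, 7.53, 7.73 and 7.05 in smoke arrays 1 to 6. All 6 smoke arrays lay below all 4 controls, which held for 1 of the 14 tested probe sets of these genes and for 2.83% of 27022 tested probe sets. The change of -1.05 ± 0.31 (2.07-fold lower, interval from -1.73 to -0.36) had an unadjusted p of 0.00593 and an adjusted p of 0.270 (limma). Another probe set, 1421188_at, had a change of -0.66 ± 0.52 (adjusted p = 0.685), with smoke array 2 lowest at 5.67. The dim probe set 1421187_at had a change of 0.50 (two-sided exact permutation p = 0.371), opposite in sign to the others. None of the Ccr2 probe sets passed the test.

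**Figure D3:**
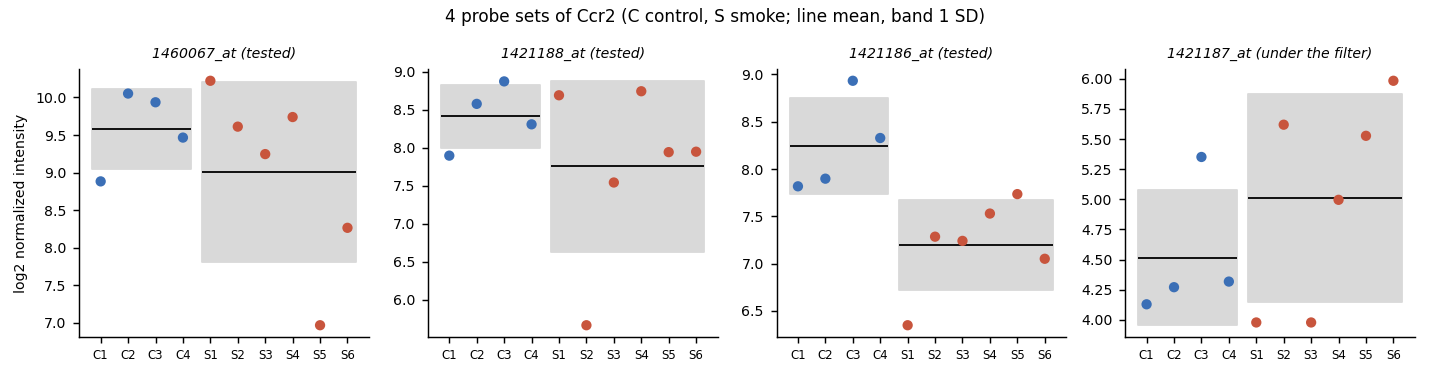
Log2 normalized intensity (vertical axes) of the 4 Ccr2 probe sets in controls C1 to C4 (blue) and smoke arrays S1 to S6 (red), with group means (lines) and 1 SD to either side (bands). Only 1421186_at has all 6 smoke arrays below the 4 controls; in 1460067_at the lowest arrays are S5 and S6, and in 1421188_at the lowest is S2.

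Of the CCR2 ligands, Ccl12 fell by 2.95 ± 0.50 (limma, adjusted p = 0.0179): controls ran from 8.79 to 9.49 and smoke arrays from 4.36 to 7.49, so the groups did not overlap. This was the only ligand gene called, and its call was lost without any 1 of the 4 controls (adjusted p from 0.0533 to 0.106), at changes from -3.07 to -2.84. Ccl12 also did not pass in the fit without the filter on dim probe sets, and it passed in 18 of 23 settings. Ccl2 and Ccl7 were dim, with changes of 1.24 and -0.11 (two-sided exact permutation p = 0.105 and 0.757).

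Cx3cr1 encodes the fractalkine receptor of patrolling monocytes, some interstitial macrophages and natural killer cells. Its tested probe set, 1450020_at, was at 6.79, 6.57, 7.36 and 7.30 in controls, near the filter at 6.60, and smoke arrays ran from 6.39 over a median of 6.82 to 7.34. The groups overlapped in 5 of 6 smoke arrays, and the change was -0.19 ± 0.28 (interval from -0.79 to 0.42, limma adjusted p = 0.839). The second probe set, 1450019_at, was at the floor on 7 of 10 arrays (two-sided exact permutation p = 0.833). Its ligand gene Cx3cl1 had a change of -0.04 ± 0.24 in its tested probe set (adjusted p = 0.971). Of its 3 dim probe sets, 1 had a change of 0.68 (two-sided exact permutation p = 0.0333), and the others had -0.12 and -0.20 (exact p = 0.814 and 0.4). Of 8 natural killer cell genes tested, 0 were called, with a median change of -0.15; Eomes had a change of 0.64 and Gzma of -0.64.

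The macrophage genes thus did not move evenly over the smoke arrays. Ranked over the 10 arrays, smoke array 3 was among the lowest 3 for 7 of the 8 macrophage genes and smoke array 1 for 5 of them, while controls 3 and 4 were each among the highest 3 for 5. The mean of the 8 genes was 10.32 to 10.86 in controls and 9.54, 10.26, 9.81, 10.30, 10.56 and 10.52 in smoke arrays 1 to 6. Smoke array 1, with the highest actin ratio but not a high GAPDH ratio, had the lowest mean. Arrays 5 and 6, with the lowest of both ratios, had the highest means of the smoke group. The other smoke arrays did not follow the order of the actin ratio: array 2, with a ratio of 29.4, was at 10.26, and array 3, with a ratio of 9.26, was at 9.81. When log2 actin ratio was added to the fit as a covariate 0 of the 10 genes were called, as when log2 Xist was added.

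**Figure D4:**
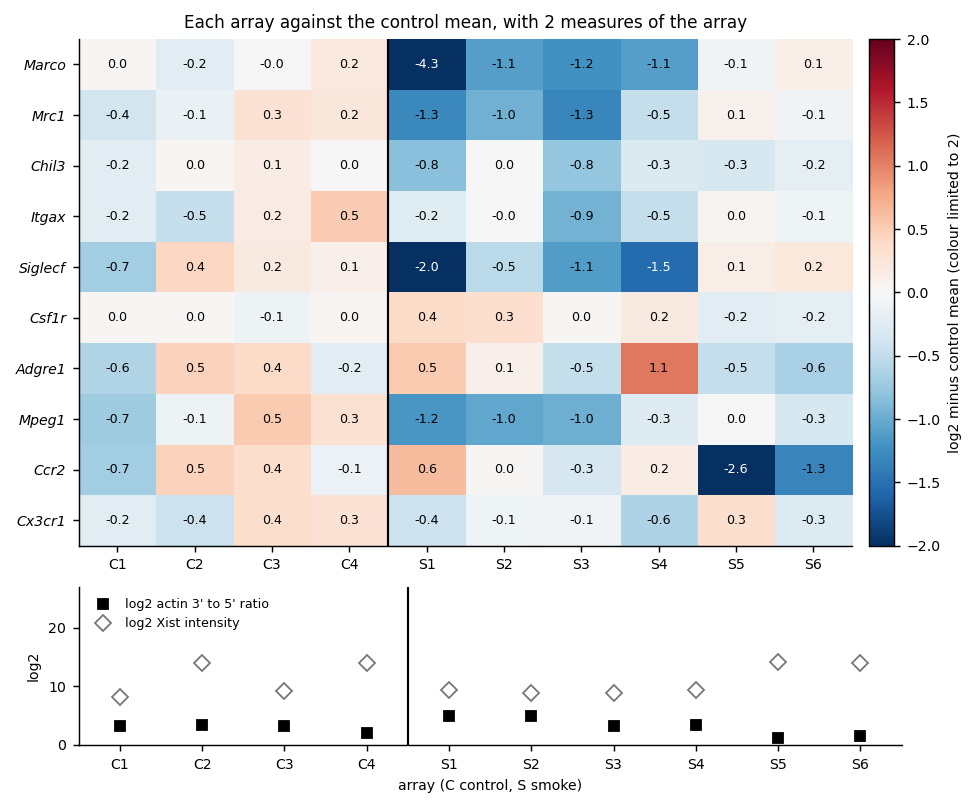
Upper panel: log2 level of each gene on each array minus its control mean (colour, limited to 2, with the value printed) for controls C1 to C4 and smoke arrays S1 to S6. Lower panel: log2 actin 3' to 5' ratio (squares) and log2 Xist intensity (diamonds) of the same arrays. S5 and S6 combine high Xist with the lowest actin ratios, levels of Marco, Mrc1 and Siglecf within the control range and the lowest Ccr2 1460067_at.

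Smoke was therefore also compared with control within each Xist level, a split chosen after these values were seen: controls 1 and 3 against smoke arrays 1 to 4, and controls 2 and 4 against smoke arrays 5 and 6. In the low-Xist arrays Mrc1 had a change of -0.97 ± 0.29 (limma, adjusted p = 0.150), Marco of -1.95 ± 0.80 (0.256 adjusted), and Siglecf of -1.04 ± 0.44 (0.264 adjusted). In the high-Xist arrays the changes were -0.03 ± 0.33, 0.03 ± 0.93 and -0.09 ± 0.51. The difference between the levels, which 0.00747% of genes passed, did not pass for any of these, at adjusted p-values of 0.357 for Mrc1, 0.462 for Marco and 0.514 for Siglecf. Ccr2 1460067_at had changes of 0.30 ± 0.44 in the low-Xist and -2.14 ± 0.50 in the high-Xist arrays. The difference of -2.44 ± 0.67 had an unadjusted p of 0.0043 and an adjusted p of 0.221 (limma). Ccr2 1421188_at had changes of -0.72 ± 0.74 in the low-Xist and -0.50 ± 0.86 in the high-Xist arrays. For Ccr2 1421186_at they were -1.28 ± 0.44 and -0.72 ± 0.51. The differences for these probe sets, 0.23 and 0.55, were opposite in sign to that of 1460067_at (limma, adjusted p = 0.936 and 0.705). None of the 10 genes was called within either level, where 1.04% of genes were lower and 0.598% higher in the low-Xist arrays, and 0.194% lower and 0.00747% higher in the high-Xist arrays. Both high-Xist smoke arrays also had the lowest actin ratios, while among the 4 low-Xist smoke arrays the ratio ran from 9.26 to 31.6. In smoke arrays 1 to 4 the ratio was 31.6, 29.4, 9.26 and 10.3. Marco was at 3.98 (the floor), 7.22, 7.12 and 7.22 in the same arrays. The parts of Xist level and actin ratio in the values of smoke arrays 5 and 6 cannot be told apart.

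The arrays numbered 1 to 4 in both groups were compared as the base of the fit with replicate number. That comparison was listed with earlier results known and leaves out smoke arrays 5 and 6, the highest smoke arrays for Mrc1, Marco and Siglecf, so its values depend on that omission and support nothing about the groups as a whole. In it Mrc1 had a change of -1.01 (limma, adjusted p = 0.0426), the 1 call among the 10 genes, where 2.47% of genes were called lower and 3.18% higher. Without smoke arrays 1 and 2, the arrays with the highest actin ratios, 0 of the 10 genes were called, where 0.88% of genes were lower and 0.0752% higher, and the changes were -0.57 for Marco, -0.44 for Mrc1, -0.58 for Siglecf and -0.39 for Mpeg1.

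Other genes of the same cells were taken from lists chosen with earlier results of these data known. Of 23 further alveolar macrophage genes tested, 0 were called and 19 had a change below 0, with a median of -0.34. Lpl, a lipase of lipid handling, was below every control in 6 of 6 smoke arrays at -0.61 ± 0.17 (limma, adjusted p = 0.227), and Abca1, a cholesterol exporter, had a change of -0.72 ± 0.23 (adjusted p = 0.324). Of 17 interstitial macrophage genes, 0 were called and 13 had a change below 0, with a median of -0.33, including F13a1 at -0.63 ± 0.21 (adjusted p = 0.345) and Lyve1 at -0.70 ± 0.27 (0.415 adjusted). Of 12 regulators of myeloid development, 0 were called and 3 had a change below 0, with a median of 0.26; Spi1, which encodes PU.1, had a change of 0.49 and Irf8 of 0.44 (adjusted p = 0.563 and 0.522). Lists of alternative and classical activation had 8 genes tested each and 0 called, with medians of -0.35 and -0.13. Retnla, secreted after interleukin-4, had a change of 1.27 and Il4ra of -0.78 in the first, and Cd40 had 0.66 and Cxcl10 -0.91 in the second. Among 9 genes of growth factor and cytokine signals, which include Il4ra, 0 were called; Il13ra1 had a change of -0.50, and the median was -0.22.

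Beside the 2 monocyte receptors, 4 of 21 other monocyte genes fell and 0 rose, with a list median of -0.19; over all genes tested 0.702% fell and 0.0224% rose. Of the 21, 15 had a change below 0 and 6 above. Plac8, a gene high in inflammatory monocytes, fell by 1.76 ± 0.24 (limma, adjusted p = 0.0038), and Ms4a6c, a membrane protein gene of monocytes, fell by 1.85 ± 0.26 (adjusted p = 0.0048). Fcgr1 and Fcgr4, which encode activating receptors for IgG, also fell, with changes of -1.22 ± 0.21 and -1.06 ± 0.19 (adjusted p = 0.0215 and 0.0226). All 4 were below every control in 6 of 6 smoke arrays, as was Ccr2 1421186_at, which was not called. The groups of Ccr2 1460067_at and Cx3cr1 overlapped. Among the 6 genes with a change above 0, Itga4 was above every control in 6 of 6 smoke arrays, at 0.47 ± 0.20 (limma, adjusted p = 0.468). Nr4a1 had a change of 1.03 and Vcan of 0.49 (limma, adjusted p = 0.589 and 0.495). Of 27 scavenger and phagocytic genes 2 fell, Fcgr1 again and Tyrobp, the signalling adaptor DAP12, at -1.01 ± 0.17 (adjusted p = 0.0162). The same 4 monocyte genes and the same 2 phagocytic genes were called without smoke arrays 1 and 2. Fcgr1 did not pass on the values as deposited, Fcgr4 did not with the replicate block, and Tyrobp did not when median centred. Plac8 and Ms4a6c passed whichever 1 array was left out; Fcgr1 and Fcgr4 each passed in 5 of 10 such fits and Tyrobp in 7.

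Among 8 neutrophil genes the median change was -0.66. Of these, 3 fell and the other 5 missed the threshold. Camp and Mmp9 had changes of -0.84 and -0.47, and Csf3r, Ltf and Ngp had -0.26, -0.06 and 0.001. The list thus did not fall evenly. S100a9 and S100a8, the subunits of calprotectin, which monocytes also express, fell, with changes of -1.995 ± 0.28 and -1.60 ± 0.24 (limma, adjusted p = 0.0042 and 0.0078), and Mmp8, a collagenase of neutrophil granules, fell by 1.39 ± 0.22 (adjusted p = 0.0128). S100a9 passed whichever 1 array was left out, S100a8 passed in 8 of 10 such fits, lost without control 2 or 3, and Mmp8 in 7, lost without control 1, 2 or 3. S100a8 also did not pass on the values as deposited (adjusted p = 0.0597) or median centred (0.0880 adjusted). The mean level of the 8 genes was 9.76 to 9.92 in controls and 8.74 to 9.28 in smoke arrays, without overlap; the part of neutrophils in the monocyte values was not tested. Of 14 genes common to white blood cells, 0 were called, with a median of -0.22, and the means of that list overlapped, at 9.52 to 9.85 in controls and 9.18 to 9.69 after smoke. In it Cd52 and Cd53, both membrane proteins, had changes of -0.70 and -0.81 (adjusted p = 0.230 and 0.478). B cell genes had a median of 0.67 (8 tested, 0 called), and their list mean was 7.34 to 7.74 in controls and 7.999 to 8.48 after smoke. Blk, a B cell kinase, and Cd79a, a subunit of the B cell receptor, had changes of 0.80 and 0.98 (adjusted p = 0.327 and 0.356). T cell, mast cell and red cell lists had 0 called, with medians of -0.14, -0.06 and -0.14. Changes were 0.31 for Cd5 and -0.20 for Cd3g in the first, -0.35 for Gata2 and 0.27 for Cma1 in the second, and 0.74 for Slc4a1 and -0.38 for Alas2 in the last.

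Markers of the other tissue cells gave 0 calls as well. Median changes were 0.04 for 7 alveolar type 2 genes, -0.02 for 8 alveolar type 1 genes, -0.25 for 10 blood vessel genes and 0.05 for 9 stromal genes. In these lists the surfactant genes Abca3 and Sftpb had changes of 0.29 and 0.19, Clic5 and the water channel Aqp5 had -0.56 and 0.42, and the endothelial genes Cldn5 and Tek had 0.27 and -0.35. Eln, which encodes elastin, had 0.55 and Tcf21 0.52. Heart genes and fat genes, which can trace tissue taken along with the lung, had medians of -0.29 and -0.68, and the fat list mean ran from 8.32 to 10.96 in controls and from 7.68 to 9.70 after smoke. Myh6 and Tnni3, genes of heart muscle, had changes of -1.19 and -0.71, and the fat genes Fabp4 and Adipoq had -0.95 and -0.68. Fabp4 was also in the list of further alveolar macrophage genes. The lowest adjusted p among the genes of these 6 lists named here was 0.283, for Myh6. In all, 9 of 217 genes tested in the 25 related lists fell and 0 rose, against 0.702% and 0.0224% of all genes tested, and all 9 are named above; the lists were chosen with earlier results known.

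**Figure D5:**
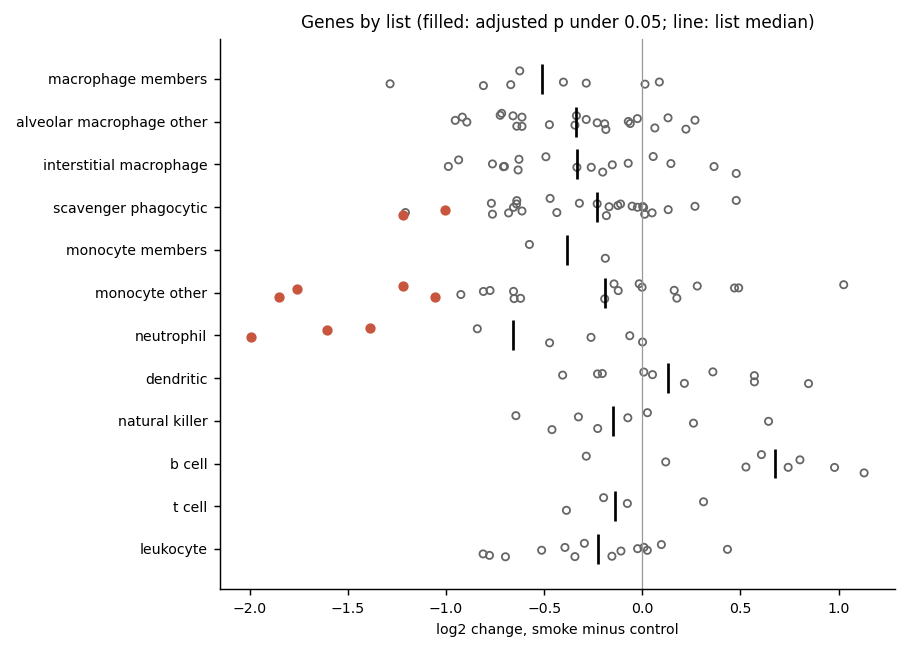
Log2 change from control to smoke (horizontal axis) of each tested gene in 12 lists (vertical axis), with filled points for genes at an adjusted p under 0.05 and a line at each list's median. Filled points lie in the monocyte, phagocytic and neutrophil lists, and 0 of the macrophage and monocyte genes followed here are filled.

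Some of the genes varied together from array to array. After the group means were taken off, the deviations of Mrc1 and Mpeg1 had a Pearson correlation of 0.91 over the 10 arrays. Those of Csf1r 1419872_at and Ccr2 1460067_at had 0.82. Other pairs varied in opposite directions: Csf1r 1419872_at had correlations of -0.74 with Marco, -0.74 with Mrc1 and -0.71 with Siglecf. The Marco value includes smoke array 1, where Marco was at the floor. These correlations were not computed for the other Csf1r probe sets. The mean of the 8 macrophage genes, taken over their brightest probe sets, therefore combines probe sets that moved against each other. Among the other genes, those most like the mean of the 8 macrophage genes were Mrpl21, a protein of the mitochondrial ribosome, and Syap1 (both 0.97), Nrip1, a nuclear receptor corepressor (0.96), Ctsc, a lysosomal protease (0.95), and C1galt1, a glycosyltransferase (0.95). Without the 2 arrays farthest from the median, smoke arrays 1 and 3, the 5 correlations were 0.93, 0.98, 0.95, 0.96 and 0.90. Of 13372 genes, 59 (0.441%) were above 0.9. The points share RNA quality and normalization, as they come from the same arrays, so these values describe the arrays only.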

How the data were processed

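The deposited values are linear intensities, 1 for each probe set of each array. Their trimmed means, computed here with 2% cut at each end, are alike on every array, at 499.5 to 499.9. Per the labels' protocols, Trizol RNA was amplified to cRNA. The program that summarised the probes is not given in the sources used here. For this report the only 0 was replaced by the lowest positive value, and log2 values were quantile normalized, because array medians ran from 7.01 to 7.70. Then a floor was set at the 10th percentile (intensity 15.8). Testing covered 27022 probe sets, the upper 60% of 45037 by mean, in limma 3.58.1 (R 4.3.3, trended eBayes, two-sided, Benjamini-Hochberg threshold 0.05), with 4 controls, 6 smoke arrays and no covariate. Each gene was read from its brightest tested probe set that has 1 symbol in the platform annotation (13382 genes). Dimmer probe sets were compared by exact permutation, whose smallest possible p is 0.00476. On simulated arrays with 27022 probe sets the fit recovered 70% of 50 probe sets lowered by a log2 change of 2, 16% of 50 lowered by 1, 80% of 50 raised by 2 and 30% of 50 raised by 1, with 8 false calls.

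The genes and lists were chosen with earlier results of these data known. Named were all 10 genes with every probe set, the ligands of their receptors, up to 4 genes of each list (those past the threshold, and where fewer than 2 passed, the smallest p up to 2), and the 5 genes most like the mean of the macrophage genes. Chil4, the monocyte genes Itga4, Nr4a1 and Vcan, and the neutrophil genes Camp, Mmp9, Csf3r, Ltf and Ngp were named outside this rule. The design text's rule speaks of 9 pairwise comparisons, and was applied as 16 of the 24 pairs available. The count of pairs alone did not make a call. Marco, Mrc1 and Chil3 each had 4 of 6 smoke arrays below every control and were not called by the rule. Its further conditions are not given here, so its counts cannot be read from the levels printed. Alternatives changed the normalization, the filter, the floor, the eBayes trend, the weights of arrays, the replicate block, covariates for Xist and actin, the arrays used and the probe set chosen. Figures used matplotlib 3.10.9 (Python 3.11.15).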

Additional observations from a re-analysis of the deposited data

Results flagged for a closer look

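Of 34 groups of arrays tested over the 17 probe sets, 5 held an array that stood apart from its group by Dixon's criterion. Chance alone meets it in about 1 in 20 groups, a rate that need not hold where values were set to the floor. Marco 1449498_at was at 3.98, the floor, on smoke array 1, against 7.12 on the nearest and 8.46 on the highest of the other smoke arrays. On the same array the dim Marco probe set 1458297_s_at stood out the other way, at 6.60 against 4.89 on the nearest smoke array, so the 2 Marco probe sets disagreed there. The actin ratio of that array, 31.6, was the highest of all 10, and its part in these values was not tested. Csf1r 1419872_at was at 13.10 on control 3, against 13.22 to 13.23 on the other controls. Dim probe sets gave the others. Ccr2 1421187_at was at 5.35 on control 3, with the nearest control at 4.32. Cx3cr1 1450019_at was at 5.13 on control 2, with the other controls at the floor. With those controls tied, any value above the floor would have stood apart.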

How the results depend on the processing

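Over 28 settings, 0 of the 10 genes were called lower in 26 and 0 were called higher in all 28. The exceptions were the arrays numbered 1 to 4, where 1 gene was called lower (Mrc1, 1 probe set), and the same arrays with the replicate block, where 2 were (Mrc1, adjusted p = 0.0377, and Mpeg1, adjusted p = 0.0437; 2 probe sets), with 2.53% of genes lower. Same-numbered arrays had correlations of -0.07, 0.17, -0.06 and -0.05, and 0 of 4 controls were most like their own number. The labels give no batch, so whether same-numbered arrays shared one cannot be told from these values. In the related lists, 9 genes lower and 0 higher became 24 and 4 in the arrays numbered 1 to 4, 23 and 4 with the replicate block, and 15 and 1 with the actin ratio in the fit. With single arrays left out the count lower ran from 3 to 10, at 3 without control 2, 3 without control 3 and 5 without control 4. Csf1 passed in 10 of 24 settings.

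Signs turned as follows. Adgre1 was at -0.016 as deposited, -0.10 median centred, -0.27 with array weights, -0.020 with Xist and -0.045 with the actin ratio in the fit, -0.14 without smoke arrays 1 and 2, -0.68 in high-Xist arrays, and -0.20 to 0.17 with single arrays left out. Csf1r 1419872_at was at -0.060 with array weights, -0.048 without smoke arrays 1 and 2 and -0.23 in high-Xist arrays. Csf1r 1419873_s_at was at -0.049 median centred, -0.022 in the arrays numbered 1 to 4 with and without the block, -0.057 in low-Xist arrays and -0.074 to 0.12 with single arrays left out. Csf1r 1423593_a_at was at -0.0047 without smoke arrays 1 and 2 and -0.18 in high-Xist arrays. Ccr2 1460067_at was at 0.12 in the arrays numbered 1 to 4 with and without the block and 0.30 in low-Xist arrays. In high-Xist arrays Marco was at 0.032 and Cx3cr1 at 0.10. The cause was not tested. Dim probe sets of Marco, Ccr2 and Cx3cr1 were close to the floor, which limits what they can show.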
